A study of Mus musculus with 2 samples.

Results

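The Slit, Robo and netrin guidance genes were followed here through the mouse mandibular arch, the embryonic tissue that gives rise to the lower jaw. The set holds 9 genes, namely the secreted ligands Slit1, Slit2, Slit3 and Ntn1 and the receptors Robo1, Robo2, Unc5b, Unc5c and Neo1. They were taken by their symbols out of 27998 genes listed at E12.0 and 31053 genes listed at E9.5, and each had 1 row in either list. The choice was made with earlier results of these data known. Slits are large secreted proteins that bind Robo receptors and classically repel growing axons and migrating cells. Netrin-1, the product of Ntn1, attracts through Dcc-type receptors and repels through Unc5 receptors, while Neo1 encodes neogenin, a receptor for netrins and for repulsive guidance molecules. Outside the nervous system the same proteins take part in branching, cell adhesion and cell sorting in epithelia, and Unc5b is well known in blood vessels.

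The data were 2 single-cell libraries, 1 per stage, both from pooled K14Cre;R26mT/mG embryos. In these embryos Cre is driven by the keratin 14 promoter and switches a membrane Tomato reporter to membrane GFP in epithelium. At E12.0 the epithelium was separated from the mesenchyme and GFP-positive cells were sorted, and at E9.5 the whole arch was used, epithelium and mesenchyme together. The labels name no treatment at either stage.

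After cells with 200 to 5500 genes and at most 10% of their UMIs (unique molecular identifiers, that is, molecules counted) from mitochondrial genes were kept, 11355 of 11663 cells remained at E12.0 and 12744 of 14293 at E9.5. The kept cells had a median of 6349 UMIs at E12.0 and of 13460.5 UMIs at E9.5, and the libraries shared 44 cell barcodes. Levels are given as UMIs scaled to a group total of 1000000 (CPM) with an exact 95% Poisson interval, or as the share of cells with at least 1 UMI. With 1 library per stage there is no replicate and no test. All intervals cover counting error only, and a gene is called higher or lower purely by size, when its CPM differed by at least 1.3 times and at least 15% of the cells on the higher side held a UMI.

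At E12.0 a zone was taken as the cells with at least 2 UMIs of a gate gene known for a region of the arch epithelium. The Gjb2/Gjb6 zone held 1761 cells (15.5% of kept cells), the Wnt9b zone 1417 (12.5%), the Pthlh zone 175 (1.54%), the Irx1 zone 672 (5.92%), the Pax9 zone 203 (1.79%) and the Dmrt2 zone 209 (1.84%). No gate was passed by 7467 cells, 65.8% of the total. The zones shared cells, mostly between Gjb2/Gjb6 and Wnt9b, where 434 cells passed both gates, 24.6% of the first zone and 30.6% of the second. Median UMIs per cell ran from 6759 to 7964 over the 6 zones against 5999 outside them.

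Genes that were not gates set the zones apart. The study maps Cxcl14 and Tfap2b to the aboral epithelium, both anterior and ventral. They stood at 2085 and 1024 CPM in the Gjb2/Gjb6 zone and at 1650 and 812 CPM in the Wnt9b zone. In the Pthlh zone they were at 837 and 248 CPM, and in the Irx1 zone at 126 and 63.0 CPM. Ntrk2, used as a dental marker, was at 65.6 CPM in the Irx1 zone and at 3.47 CPM in the Gjb2/Gjb6 zone. Runx1, an anterodorsal marker, reached 317 CPM in the Pthlh zone, and the posterior marker Col14a1 reached 79.2 CPM in the Pax9 zone and 27.7 CPM in the Dmrt2 zone. Epcam lay between 333 and 661 CPM in all 6 zones. Of the other cell types the sort could hold, endothelial Cdh5, Kdr and Emcn and the neural crest gene Foxd3 were at 0 in every zone, but other genes of these lists were present. The summed mesenchyme list ran from 54.1 to 94.5 CPM per zone, most of it Snai2, the endothelial list from 5.90 to 12.4 CPM, most of it Egfl7, and the crest list from 33.5 to 80.9 CPM, most of it Erbb3 and highest in the Pax9 zone. The neuronal list ran from 8.61 CPM in the Gjb2/Gjb6 zone to 30.9 CPM in the Irx1 zone and 32.0 CPM in the Pthlh zone, most of it Dcx, and the part of such cells in the zone levels was not tested.

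Across the 6 zones the 9 genes gave 9 higher and 10 lower calls out of 54. Of all genes that passed the detection criterion, 2.36% to 11.6% were called per zone and direction. Only 5 or 6 of the 9 genes passed it in each zone. The calls of the Gjb2/Gjb6 and Wnt9b zones rest in part on the same cells. Robo2 was called in every zone, higher in the Gjb2/Gjb6 and Wnt9b zones and lower in the other 4. For those 4 zones the other cells include the Gjb2/Gjb6 and Wnt9b zones. Beside the cells outside all zones, only the Dmrt2 and Irx1 zones were lower in Robo2 without overlap of intervals. Unc5c was called in 4 zones in the reverse layout, lower in the Gjb2/Gjb6 and Wnt9b zones and higher in the Pthlh and Dmrt2 zones. Robo1, Unc5b and Slit2 were called in some zones, and Neo1, Slit1, Slit3 and Ntn1 in none.

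**Figure D1:**
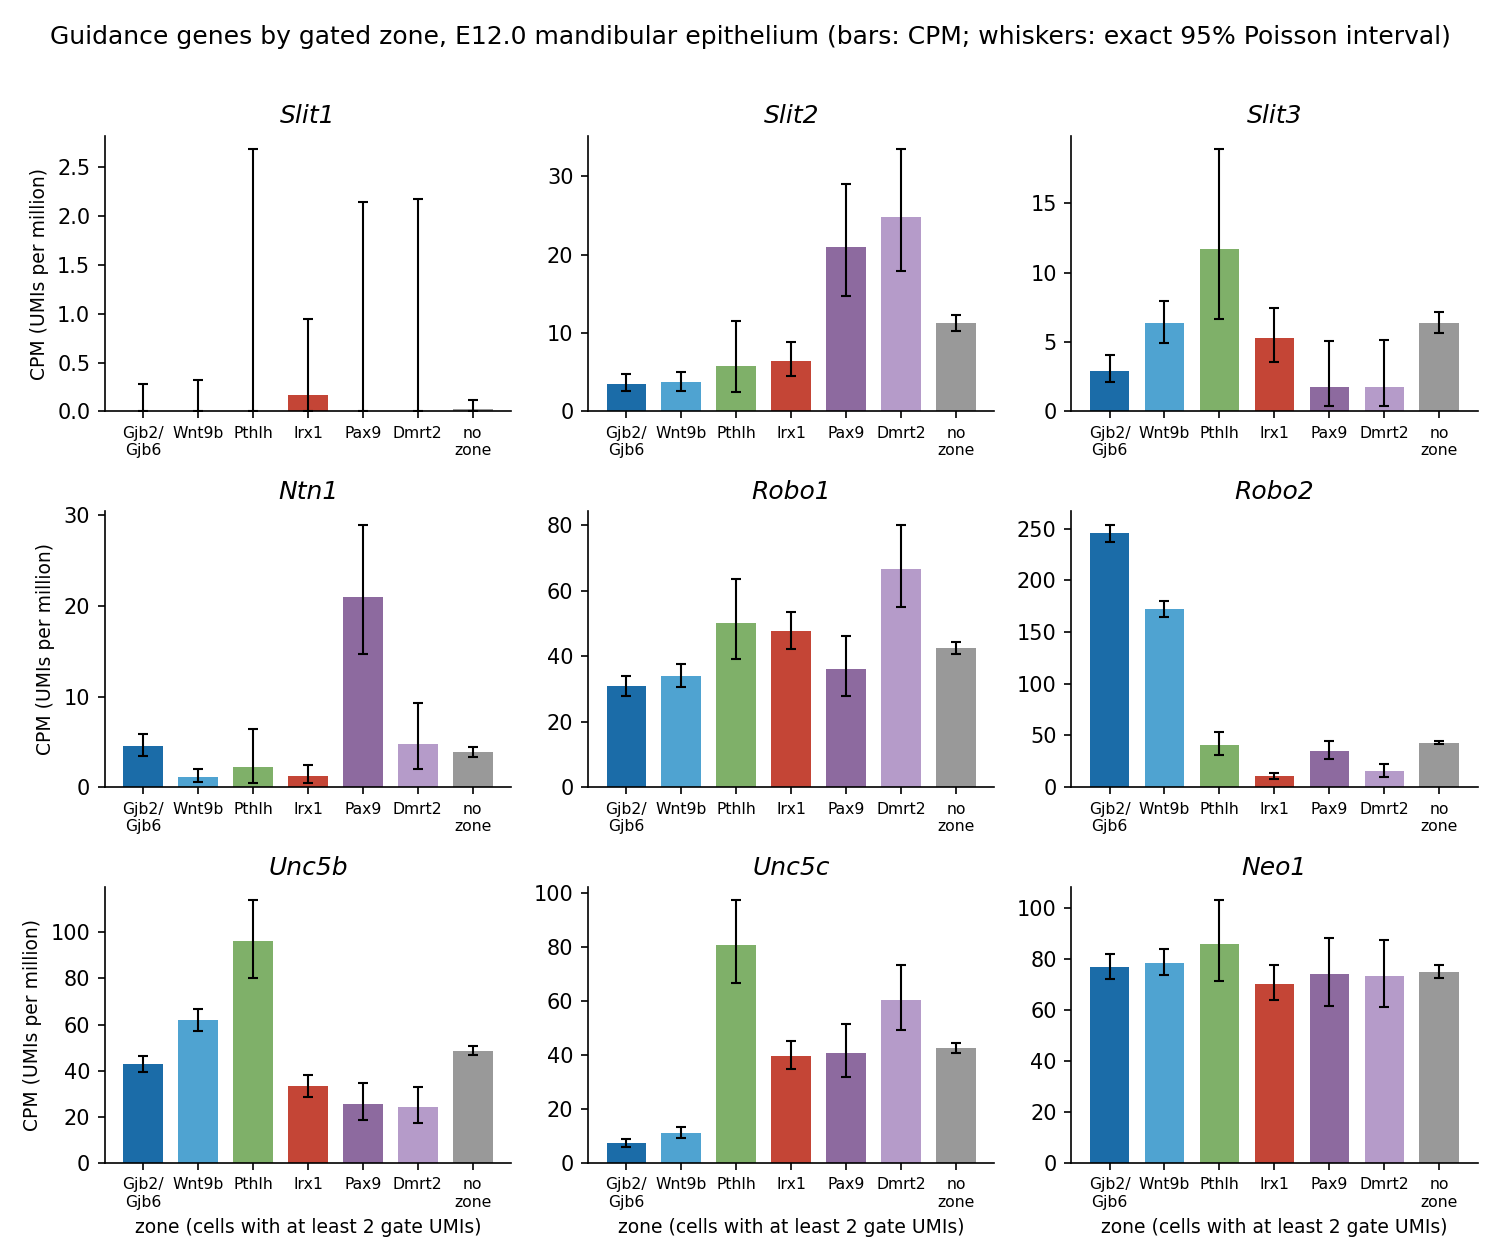
Level of each of the 9 genes in the 6 E12.0 zones and in the cells outside all zones, in CPM (bars), with whiskers for exact 95% Poisson intervals of the summed UMIs. Robo2 runs from 246 CPM in the Gjb2/Gjb6 zone to 10.5 CPM in the Irx1 zone, Unc5c runs from 7.25 CPM in the Gjb2/Gjb6 zone to 80.8 CPM in the Pthlh zone, and Neo1 stays between 70.3 and 85.9 CPM.

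Robo2, a Slit receptor, varied over a wider range of CPM than any other of the 9 genes at E12.0. Its mouse gene (ENSMUSG00000052516) lies on the minus strand of GRCm38 at chr16:73891839-74411825. In the Gjb2/Gjb6 zone it was at 246 CPM (237 to 254), with a UMI in 70.1% of cells, and in the Wnt9b zone at 172 CPM (165 to 180), with a UMI in 58.3% of cells. The Pthlh zone had 40.8 CPM (30.8 to 53.0), the Pax9 zone 34.9 CPM (26.7 to 45.0), the Dmrt2 zone 15.3 CPM (10.0 to 22.5) and the Irx1 zone 10.5 CPM (8.08 to 13.5). In that order the intervals of Pthlh and Pax9 overlapped, as did those of Dmrt2 and Irx1, and the other neighbours were apart. In cells that passed 1 gate and no other, Robo2 was at 33.9 CPM (25 to 45.0) for Pax9, 13.3 CPM (6.86 to 23.2) for Pthlh, 5.96 CPM (2.72 to 11.3) for Dmrt2 and 5.37 CPM (3.57 to 7.77) for Irx1, so that Pthlh fell below Pax9 without overlap. Cells outside all zones were at 43.1 CPM (41.2 to 45.0). The Pthlh and Pax9 zones overlapped this interval, while the Dmrt2 and Irx1 zones lay below it. With 1 gate alone, Pax9 still overlapped it and Pthlh lay below it.

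Against all other E12.0 cells, Robo2 was 5.01-fold higher in the Gjb2/Gjb6 zone (log2 fold 2.32, 2.25 to 2.40) and 1.36 higher on the log2 scale in the Wnt9b zone (1.28 to 1.44). The log2 fold was -3.07 (-3.45 to -2.71) in the Irx1 zone, -2.45 (-3.07 to -1.90) in the Dmrt2 zone, -1.26 (-1.65 to -0.89) in the Pax9 zone and -1.03 (-1.44 to -0.65) in the Pthlh zone. The Gjb2/Gjb6 zone held 50.6% of all Robo2 UMIs but 17.0% of all UMIs, and the Irx1 zone held 0.964% against 7.55%. These 6 calls stood under every alternative setting tried. The cells outside all zones were not tried as the reference, so the settings do not bear on the overlap of the Pthlh and Pax9 zones with them.

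The RefSeq window from 250 bases before to 50 bases after the Robo2 start that coincides with the annotated gene start (GRCm38.p6, minus strand, chr16:74411776-74412075) is shown because Robo2 carried the widest zone difference.

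Robo2 promoter: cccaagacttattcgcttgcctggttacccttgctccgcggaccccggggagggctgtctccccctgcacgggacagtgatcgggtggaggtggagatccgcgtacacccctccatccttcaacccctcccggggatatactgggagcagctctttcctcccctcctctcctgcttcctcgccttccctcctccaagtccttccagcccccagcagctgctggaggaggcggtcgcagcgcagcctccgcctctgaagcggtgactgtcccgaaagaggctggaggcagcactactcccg

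This window was searched on both strands for the AP-2 motif GCCNNNGGC, since the AP-2 gene Tfap2b was high in the same zones, and for the TCF/LEF motif CTTTGA, through which canonical Wnt signals act. Of 32544 promoter windows of this length, 16.7% held the AP-2 letters and 16.0% the TCF/LEF letters. The Robo2 window held neither, and neither did the windows of the other 2 RefSeq starts of Robo2, at chr16:75092721-75093020 and chr16:75447244-75447543. Reads counted at transcript ends do not tell which start was used. The 3 windows held 17, 5 and 9 CpG sites in that order, against a median of 7 over all windows.

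Robo1, the other Slit receptor of the set (ENSMUSG00000022883, plus strand, chr16:72308306-73046095), lies on the same chromosome and showed a flatter pattern. It was at 66.7 CPM (55.0 to 80.2) in the Dmrt2 zone, with a UMI in 36.4% of cells, at 50.2 CPM (39.1 to 63.6) in the Pthlh zone and at 47.6 CPM (42.2 to 53.5) in the Irx1 zone. It was at 36.1 CPM (27.7 to 46.3) in the Pax9 zone, 33.9 CPM (30.6 to 37.5) in the Wnt9b zone and 30.8 CPM (27.9 to 33.9) in the Gjb2/Gjb6 zone. Each zone's interval overlapped that of the next in this order, so that only zones farther apart in it were separated. Robo1 was higher in the Dmrt2 zone than in the other cells (log2 fold 0.74, 0.45 to 1.01) and lower in the Gjb2/Gjb6 zone (log2 fold -0.47, -0.62 to -0.32).

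The balance between the Robo receptors therefore differed from zone to zone. Robo2 gave 88.9% of the UMIs of Robo1 and Robo2 together in the Gjb2/Gjb6 zone (exact binomial interval 87.8 to 89.9) and 83.6% in the Wnt9b zone (82.0 to 85.0). It gave 49.2% in the Pax9 zone (40 to 58.4), 44.8% in the Pthlh zone (35.9 to 54.0), 18.7% in the Dmrt2 zone (12.6 to 26.2) and 18.1% in the Irx1 zone (14.2 to 22.6). The share compares zones and not the abundance of the receptors within a zone, since UMIs of different genes need not be captured alike. In the 123 cells that passed the Pthlh gate and no other, the Robo2 share was 20.7% (11.2 to 33.4), below the 44.8% of the whole Pthlh zone, and with the Irx1 or the Dmrt2 gate alone it was 10.1% and 8.18%.

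**Figure D2:**
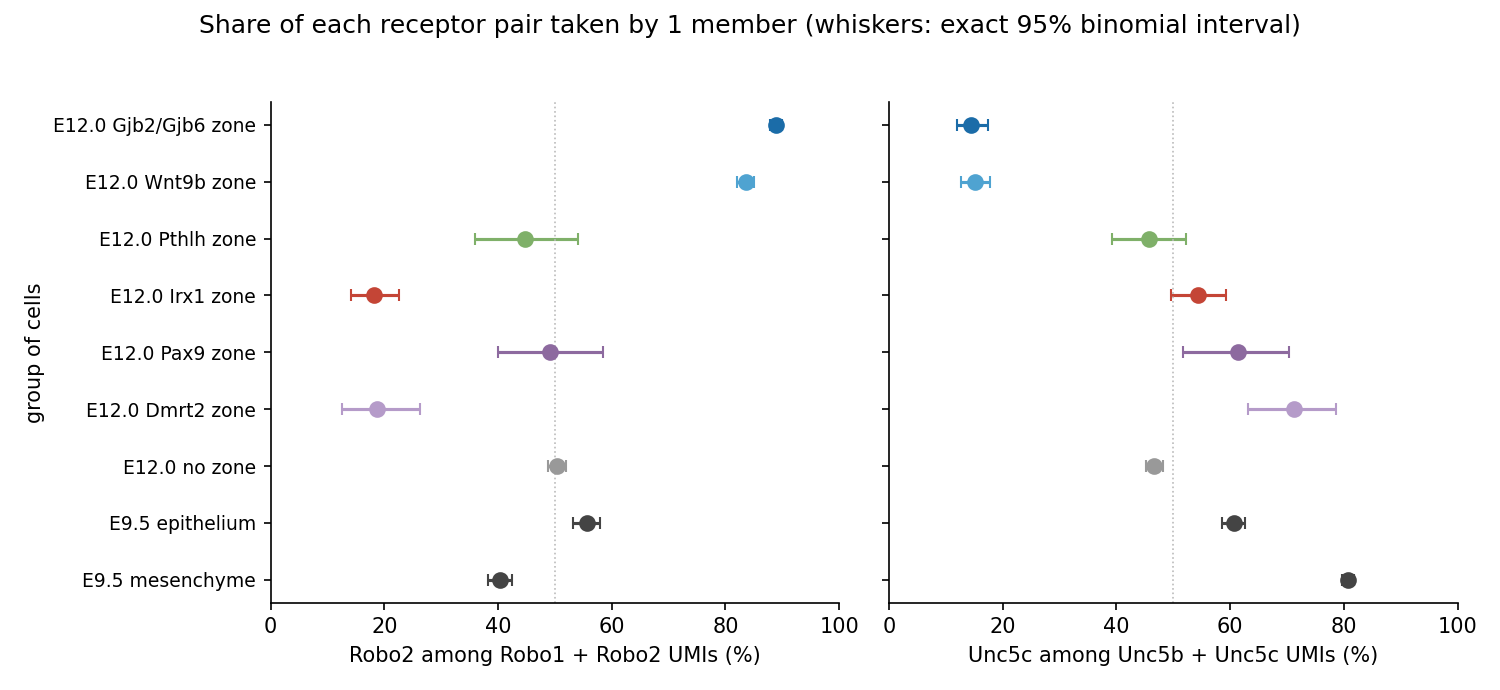
Share of receptor UMIs, in percent, given by Robo2 among Robo1 and Robo2 and by Unc5c among Unc5b and Unc5c, for the E12.0 zones, the cells outside them and E9.5 epithelium and mesenchyme, with exact 95% binomial intervals. The Gjb2/Gjb6 and Wnt9b zones lie at 88.9% and 83.6% on the Robo2 share and at 14.5% and 15.1% on the Unc5c share, and the Dmrt2 zone lies at 18.7% and 71.3%.

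Unc5c, a netrin receptor that mediates repulsion (ENSMUSG00000059921, plus strand, chr3:141465216-141834924), had its highest level in the Pthlh zone at 80.8 CPM (66.5 to 97.3), with a UMI in 35.4% of cells. The Dmrt2 zone followed at 60.2 CPM (49.1 to 73.1), the Pax9 zone at 40.7 CPM (31.8 to 51.5) and the Irx1 zone at 39.6 CPM (34.7 to 45.0). The Wnt9b zone was at 11.0 CPM (9.16 to 13.1) and the Gjb2/Gjb6 zone at 7.25 CPM (5.87 to 8.85), with intervals that overlapped neither each other nor those of the other 4 zones. The log2 fold against the other cells was -2.47 (-2.78 to -2.17) in the Gjb2/Gjb6 zone and -1.81 (-2.08 to -1.55) in the Wnt9b zone. It was 1.26 (0.98 to 1.54) in the Pthlh zone and 0.83 (0.53 to 1.11) in the Dmrt2 zone. Most Unc5c UMIs, 75.2%, came from cells outside all zones, which held 61.0% of all UMIs.

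Unc5b, the other Unc5 receptor of the set (ENSMUSG00000020099, minus strand, chr10:60762593-60831581), shared the high level of the Pthlh zone but not the low levels of Unc5c. It was at 96.1 CPM (80.4 to 114) in the Pthlh zone, with a UMI in 46.9% of cells, at 61.9 CPM (57.4 to 66.6) in the Wnt9b zone and at 42.8 CPM (39.4 to 46.5) in the Gjb2/Gjb6 zone. The Irx1, Pax9 and Dmrt2 zones were at 33.1 CPM (28.6 to 38.1), 25.6 CPM (18.6 to 34.4) and 24.2 CPM (17.4 to 32.8), with overlapping intervals. Unc5b was higher in the Pthlh zone (log2 fold 1.02, 0.76 to 1.27) and the Wnt9b zone (0.43, 0.31 to 0.55), and lower in the Irx1 zone (-0.58, -0.80 to -0.37), the Pax9 zone (-0.93, -1.39 to -0.50) and the Dmrt2 zone (-1.01, -1.49 to -0.57).

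As a result the Unc5 receptors also shifted in balance. Unc5c gave 14.5% of the Unc5b and Unc5c UMIs in the Gjb2/Gjb6 zone (11.9 to 17.4) and 15.1% in the Wnt9b zone (12.7 to 17.7). It gave 45.7% in the Pthlh zone (39.3 to 52.2), 54.4% in the Irx1 zone (49.6 to 59.2), 61.4% in the Pax9 zone (51.8 to 70.4) and 71.3% in the Dmrt2 zone (63.2 to 78.6). The zones with a high Robo2 share were the zones with a low Unc5c share.

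The promoter windows of the Unc5 pair are shown because the receptors parted in the Gjb2/Gjb6 and Wnt9b zones (RefSeq, GRCm38.p6, chr10:60831532-60831831 on the minus strand for Unc5b and chr3:141465314-141465613 on the plus strand for Unc5c). Capitals mark an AP-2 match.

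Unc5b promoter: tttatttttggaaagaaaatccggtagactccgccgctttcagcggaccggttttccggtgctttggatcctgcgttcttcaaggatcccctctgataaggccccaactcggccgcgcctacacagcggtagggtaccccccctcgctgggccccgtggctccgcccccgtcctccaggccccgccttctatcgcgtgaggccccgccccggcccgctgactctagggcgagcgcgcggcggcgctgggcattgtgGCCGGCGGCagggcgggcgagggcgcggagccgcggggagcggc

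Unc5c promoter: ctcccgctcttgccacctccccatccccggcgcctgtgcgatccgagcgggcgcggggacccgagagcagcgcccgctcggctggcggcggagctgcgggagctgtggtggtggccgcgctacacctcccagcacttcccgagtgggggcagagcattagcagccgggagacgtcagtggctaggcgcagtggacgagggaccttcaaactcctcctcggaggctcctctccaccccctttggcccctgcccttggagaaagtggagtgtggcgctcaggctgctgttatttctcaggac

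The Unc5b window held 1 match to GCCNNNGGC, a letter pattern found in 16.7% of all windows, and the Unc5c window held none. Neither held CTTTGA. They held 36 and 24 CpG sites.

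Neo1, the netrin and repulsive guidance molecule receptor (ENSMUSG00000032340, minus strand, chr9:58874687-59036441), was even across the E12.0 epithelium. It lay between 70.3 CPM in the Irx1 zone (63.7 to 77.5) and 85.9 CPM in the Pthlh zone (71.1 to 103), and 42.1% to 45.7% of the cells of each zone held a UMI. All neighbouring intervals overlapped, and no zone met the size criteria.

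The ligands were scarce in the sorted E12.0 epithelium. Their levels in mesenchyme and other tissues were not measured at this stage. Slit2 had 726 UMIs in all kept cells, Slit3 441, Ntn1 286 and Slit1 2. Summed over the 3 Slit genes, the Slit level was 15 CPM, while the summed Robo level was 123 CPM and that of Unc5b, Unc5c and Neo1 was 158 CPM. UMIs of different genes need not be captured alike, so these sums do not give the relative abundance of ligand and receptor.

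Slit2 (ENSMUSG00000031558, plus strand, chr5:47983138-48307733) was highest in the posterior zones, at 24.8 CPM (17.9 to 33.5) in the Dmrt2 zone and 21 CPM (14.7 to 29.0) in the Pax9 zone, where 16.7% and 15.3% of cells held a UMI. It was at 6.46 CPM (4.57 to 8.86) in the Irx1 zone, 5.83 CPM (2.52 to 11.5) in the Pthlh zone, 3.70 CPM (2.66 to 5.00) in the Wnt9b zone and 3.55 CPM (2.61 to 4.72) in the Gjb2/Gjb6 zone. Of the 4 zones where Robo2 was called lower, Slit2 was therefore high in 2, Dmrt2 and Pax9, and not in the Irx1 and Pthlh zones. The log2 fold was 1.47 (0.98 to 1.92) in the Dmrt2 zone and 1.21 (0.69 to 1.69) in the Pax9 zone. Both shares of cells lay just past the 15% criterion, and the Pax9 call held in 5 of 11 alternative settings and the Dmrt2 call in 8 of 11. Its RefSeq window (GRCm38.p6, plus strand, chr5:47982905-47983204) is shown because Slit2 was the ligand with zone calls, with an AP-2 match in capitals.

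Slit2 promoter: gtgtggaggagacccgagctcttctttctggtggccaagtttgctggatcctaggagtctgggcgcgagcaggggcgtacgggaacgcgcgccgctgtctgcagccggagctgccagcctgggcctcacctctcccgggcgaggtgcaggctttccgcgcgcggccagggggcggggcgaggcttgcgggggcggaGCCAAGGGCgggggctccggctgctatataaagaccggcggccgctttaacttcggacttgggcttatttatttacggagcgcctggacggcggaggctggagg

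The Slit2 window held 1 match to GCCNNNGGC, none to CTTTGA and 30 CpG sites. Among the 7 genes of the set that had a window, only Slit2 and Unc5b held the AP-2 letters, and 0 held the TCF/LEF letters. Slit1 and Ntn1 had no entry. A letter match is no evidence that a factor binds there.

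Ntn1 (ENSMUSG00000020902, minus strand, chr11:68209364-68400823) had its highest level in the Pax9 zone. In the Pax9 zone it was at 21 CPM (14.7 to 29.0), 6.39 times the level of the other cells (log2 fold 2.68, 2.13 to 3.18). This zone held 12.6% of all Ntn1 UMIs but 2.20% of all UMIs. Since 14.3% of the Pax9 cells held a Ntn1 UMI, just under the criterion of 15%, it was not called. In the Dmrt2, Gjb2/Gjb6, Pthlh, Irx1 and Wnt9b zones Ntn1 was at 4.72, 4.53, 2.18, 1.19 and 1.14 CPM.

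Slit3 (ENSMUSG00000056427, plus strand, chr11:35121224-35708507) was at 11.7 CPM (6.66 to 18.9) in the Pthlh zone and between 1.75 and 6.34 CPM in the other zones. With a UMI in 9.14% of the Pthlh cells it was not called (log2 fold 1.07, 0.25 to 1.79). Slit1 (ENSMUSG00000025020, minus strand, chr19:41600257-41743665) had no UMI in 5 zones and 1 UMI in the Irx1 zone, so that no zone difference was detectable at this depth.

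The calls were read against the share of all genes called in the same zone. In the Gjb2/Gjb6 zone 1 of the 9 genes was higher, against 5.10% of the 6452 genes that passed the detection criterion on either side, and 2 were lower, against 4.82%. The Wnt9b zone gave 2 higher against 3.22% and 1 lower against 2.36%. The Pthlh zone gave 2 higher against 5.44% and 1 lower against 5.52%, and the Irx1 zone gave 0 higher against 5.65% and 2 lower against 5.84%. The Pax9 zone gave 1 higher against 11.6% and 2 lower against 7.20%, and the Dmrt2 zone gave 3 higher against 10.5% and 2 lower against 6.08%. Of the 9 genes, 5 or 6 passed the detection criterion in each zone. The median log2 fold of the 9 genes lay between -0.21 and 0.37 over the 6 zones, beside -0.013 to 0.038 over all genes tested. In zones where Slit1 had no UMI it was set at its upper bound, between 2.87 and 6.39. It thus entered those medians on the higher side though it was not detected there.

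Because the zones were cut at 2 gate UMIs, the levels were also followed over the number of gate UMIs, in cells thinned to 4100 UMIs each. In cells with 0, 1, 2 and at least 3 UMIs of Gjb2 and Gjb6, Robo2 was at 45.3, 187, 249 and 259 CPM. Unc5c over the same cells was at 42.0, 10.8, 6.89 and 1.51 CPM, while Unc5b stayed between 42.4 and 50.7 CPM. Robo2 thus climbed and Unc5c declined with the gate, with most of the step already at 1 UMI.

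Over the Wnt9b gate, Robo2 climbed from 59.5 CPM at 0 UMIs to 147, 192 and 203 CPM, and Unc5b from 46.4 to 57.6, 65.8 and 79.4 CPM. Over 0, 1 and 2 Pthlh UMIs, Unc5b was at 47.7, 69.3 and 145 CPM, and Unc5c at 33.3, 50.8 and 107 CPM, the last bin being 64 cells. Over 0, 1 and 2 Pax9 UMIs, Ntn1 was at 3.45, 13.2 and 33.3 CPM and Slit2 at 8.85, 24.9 and 29.6 CPM. Each of these genes stepped in the same direction over the bins given, but some neighbouring intervals overlapped. Slit2 at 1 and 2 Pax9 UMIs had intervals of 17.5 to 34.5 and 12.8 to 58.3 CPM. Some other pairs of gate and gene did not step in 1 direction. Over 0, 1, 2 and at least 3 Dmrt2 UMIs, Unc5c was at 33.7, 65.4, 41.2 and 103 CPM. Robo1 ran 38.4, 50.6, 32.8 and 48.8 CPM over the Irx1 gate, and 41.4, 31.1, 24.9 and 35.9 CPM over Gjb2/Gjb6. Bins of under 20 cells, among them those with at least 3 Pthlh or Pax9 UMIs, were left out. In the Dmrt2 gate Slit2 ran 8.84, 25.8, 37.8 and 9.38 CPM, and its last bin held 26 cells.

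**Figure D3:**
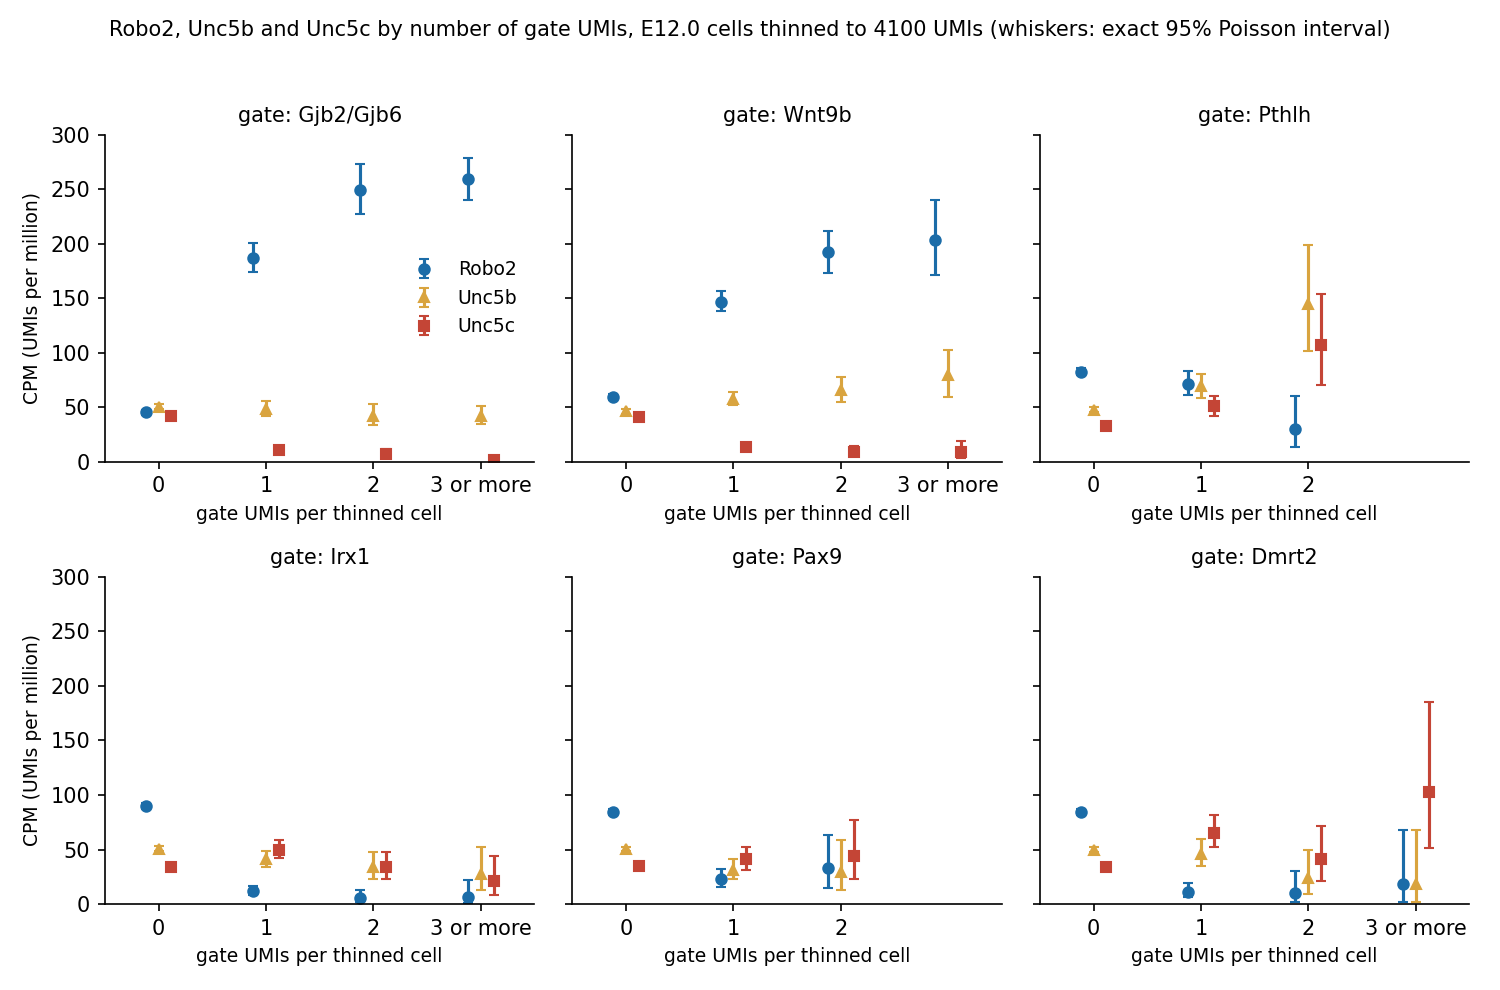
Level in CPM of Robo2, Unc5b and Unc5c in E12.0 cells grouped by the number of UMIs of a gate, after every cell was thinned to 4100 UMIs, with whiskers for exact 95% Poisson intervals. With the Gjb2/Gjb6 gate Robo2 climbs from 45.3 to 259 CPM as Unc5c drops from 42.0 to 1.51 CPM.

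The Gjb2/Gjb6 and Wnt9b zones overlapped, so cells that passed 1 of these gates and no other were compared. Robo2 was at 248 CPM in the 1287 cells with Gjb2/Gjb6 alone and at 134 CPM in the 952 cells with Wnt9b alone (log2 fold 0.88, 0.77 to 0.99). Unc5b went the other way, at 42.5 against 69.2 CPM (log2 fold -0.70, -0.90 to -0.51). Ntn1 was at 4.69 against 0.679 CPM (log2 fold 2.79, 1.45 to 4.48), a difference between small counts. The cells with Pax9 alone and with Dmrt2 alone, 173 and 192 cells, also differed. Robo2 was at 33.9 against 5.96 CPM (log2 fold 2.51, 1.47 to 3.72) and Ntn1 at 16.2 against 3.31 CPM (2.30, 0.87 to 4.05), while Robo1 was at 35.3 against 66.8 CPM (-0.92, -1.44 to -0.42). The posterior gates therefore marked cells with unlike Robo balance.

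At E9.5 cells were given to a class by at least 2 summed UMIs of its gate genes and at most 1 of any other class, which left 2465 epithelial cells (gate Epcam and Cdh1), 6023 mesenchymal cells (Prrx1, Prrx2, Pdgfra and Twist1), 179 endothelial cells, 151 cells of the muscle core and 48 erythroid cells. Another 3873 cells (30.4%) fell in none, among them the 1238 cells that passed the epithelial and the mesenchymal gate together. Genes outside the gates, Krt8, Krt18, Cldn6, Cldn7 and Esrp1, summed to 1579 CPM in epithelium and 99.8 CPM in mesenchyme. Median UMIs per cell were 11976 in epithelium and 14801 in mesenchyme.

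In E9.5 epithelium 6 of the 9 genes were higher than in mesenchyme, against 26.1% of all 7567 genes tested, and 0 were lower, against 12.7%. Of the 9 genes 7 passed the detection criterion. The 6 were the receptors Robo1, Robo2, Unc5b and Neo1 and the ligands Slit2 and Slit3. In thinned cells, where fewer cells hold a UMI, 1 of the 6 calls was left, Neo1, and with a fold of at least 2 or a UMI in 25% of cells 3 were left. The median log2 fold of the 9 genes was 0.96, beside 0.089 over all genes tested. Unc5c was the one receptor with a higher level in mesenchyme, though under the size criterion.

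**Figure D4:**
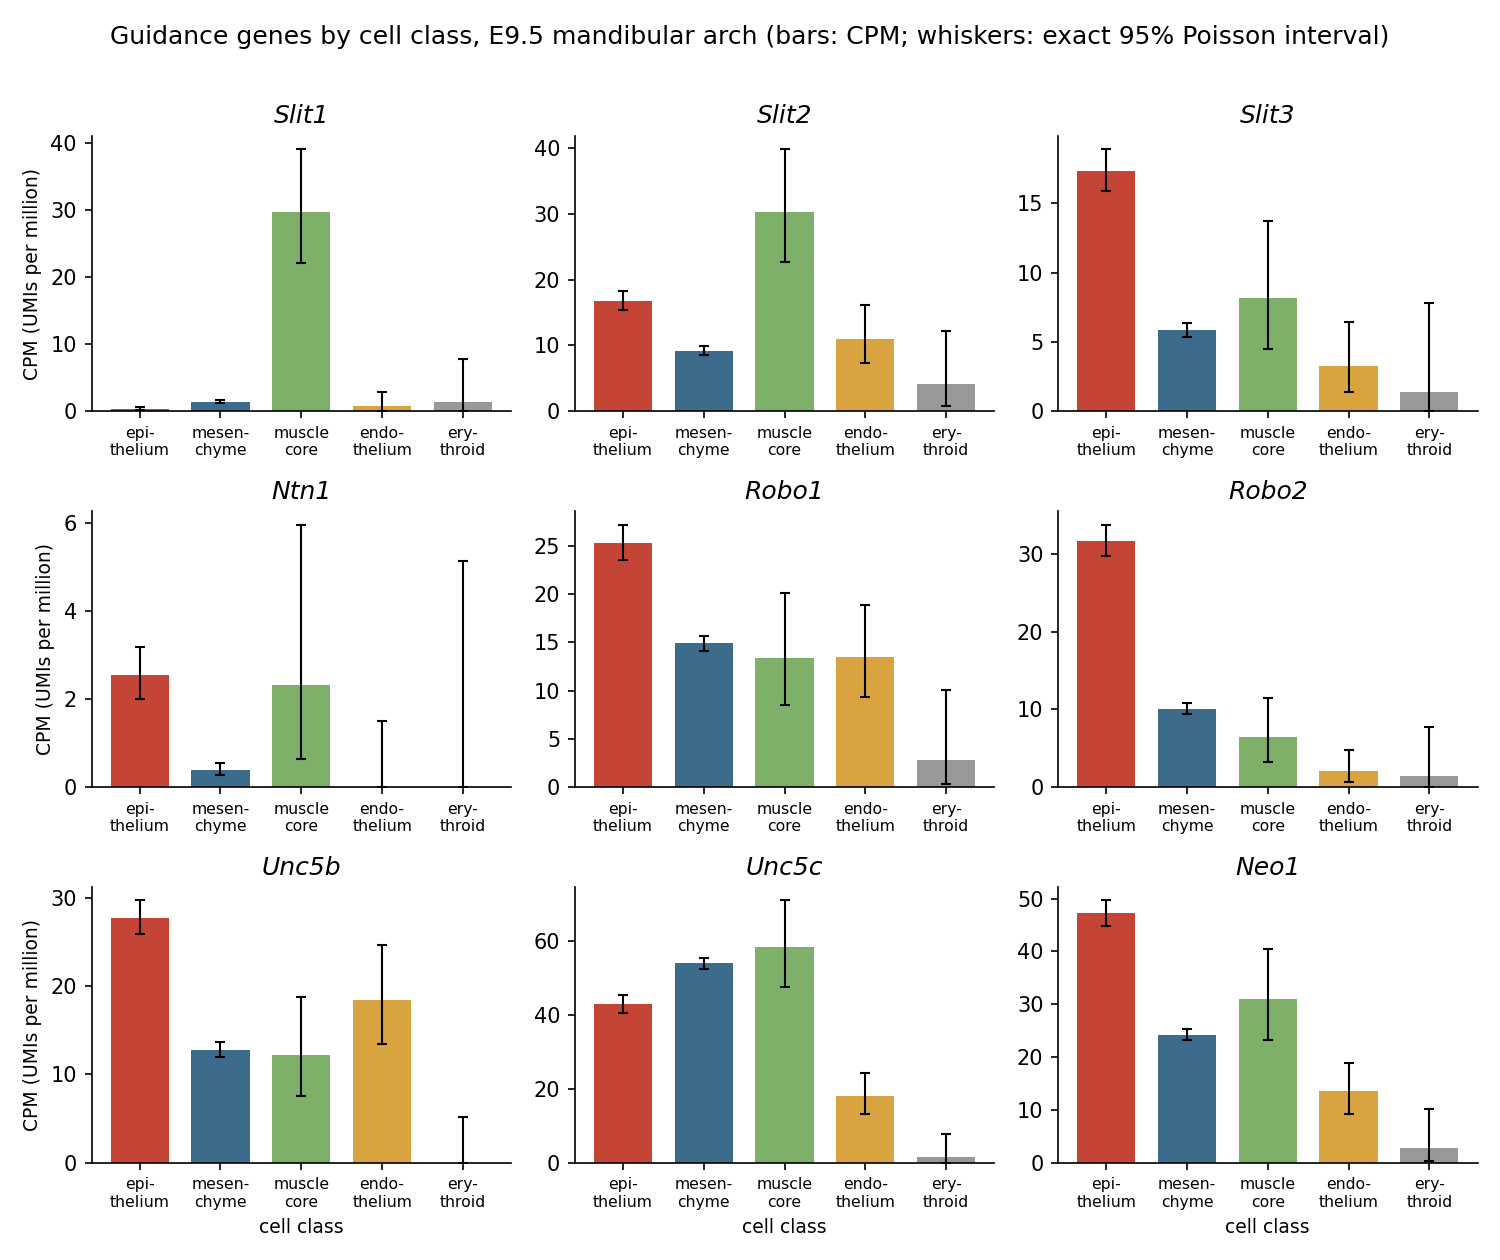
Level of each of the 9 genes in the E9.5 cell classes, in CPM (bars), with whiskers for exact 95% Poisson intervals. Slit1 reaches 29.7 CPM in the muscle core and at most 1.48 CPM in the other classes shown, and Robo2 is at 31.7 CPM in epithelium and 10.1 CPM in mesenchyme.

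Robo2 was at 31.7 CPM in E9.5 epithelium (29.7 to 33.8) against 10.1 CPM in mesenchyme (9.40 to 10.8), which is 1.66 on the log2 scale (1.52 to 1.79). Robo1 was at 25.3 CPM (23.5 to 27.2) against 14.9 CPM (14.1 to 15.7), or 0.76 on that scale (0.63 to 0.89). A Robo2 UMI was found in 25.6% of epithelial and 12.0% of mesenchymal cells. Robo2 thus gave 55.6% of the Robo UMIs in epithelium (53.2 to 58.0) and 40.3% in mesenchyme (38.2 to 42.4), between the extremes of the E12.0 zones. In erythroid cells, which should lack these genes, shares of cells with a UMI were 0% to 6.25% for the 9 genes at a median of 16308 UMIs. They give only a rough level that free RNA could reach, since the class held 48 cells. The highest share, that of Slit2, rested on 3 cells (1.31% to 17.2%). Its interval includes the Slit2 shares of mesenchyme (11.0%) and epithelium (17.1%). By CPM, erythroid Slit2 was at 4.19 (0.864 to 12.2), which includes mesenchyme at 9.20 but not epithelium at 16.8.

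Among the netrin receptors, Unc5b was at 27.7 CPM in epithelium (25.9 to 29.7) and 12.8 CPM in mesenchyme (log2 fold 1.12, 0.99 to 1.25), and Neo1 at 47.2 CPM (44.8 to 49.7) and 24.2 CPM (0.96, 0.86 to 1.06). Unc5c was at 42.8 CPM (40.5 to 45.2) against 53.8 CPM (52.2 to 55.3), or -0.33 on the log2 scale (-0.42 to -0.24). Unc5c therefore made up 80.8% of the Unc5 UMIs in mesenchyme (79.7 to 81.8) and 60.7% in epithelium. In endothelium, where Unc5b has its known vascular role, Unc5b was at 18.4 CPM (13.4 to 24.6) and Robo2 at 2.04 CPM.

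The Slit ligands split by class. Slit3 was at 17.3 CPM in epithelium (15.9 to 18.9) and 5.84 CPM in mesenchyme (log2 fold 1.57, 1.39 to 1.75), and Slit2 at 16.8 CPM (15.4 to 18.3) and 9.20 CPM (0.87, 0.71 to 1.03). Slit1 was at 29.7 CPM (22.1 to 39.1) in the muscle core against 1.48 CPM in mesenchyme, 20.0-fold higher (log2 fold 4.32, 3.83 to 4.80), with a UMI in 23.8% of the cells. Of its 448 UMIs in all kept E9.5 cells, 51 lay in the muscle core and 126 in mesenchyme, and most of the others lay in cells given to no class. Slit2 was also highest in the muscle core, at 30.3 CPM (22.6 to 39.8; log2 fold 1.72, 1.29 to 2.13). These were the only 2 of the 9 genes called higher in the muscle core than in mesenchyme, against 20.5% of all genes, and 0 were lower, against 13.6%. The summed Slit level was 68.2 CPM in the muscle core (56.4 to 81.8), 34.5 CPM in epithelium (32.4 to 36.6) and 16.5 CPM in mesenchyme, whereas the summed Robo level was 19.8, 57.0 and 25 CPM. Ntn1 was rare at this stage, at 2.54 CPM (2.01 to 3.18) in epithelium and 0.389 CPM (0.268 to 0.546) in mesenchyme.

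Within E9.5 epithelium the genes varied with regional markers. A cell counted as with a marker at 2 or more of its UMIs and as without it at none. Cells in between were left out of both sides. In 136 cells with Pax1, a pouch endoderm gene, Slit3 was at 46.9 CPM against 15 CPM in cells without it (log2 fold 1.65, 1.3 to 1.98), and Ntn1 at 11.7 against 1.60 CPM (2.87, 2.06 to 3.64). Robo2 was at 11.7 against 33.6 CPM in the same cells, Robo1 at 12.3 against 26.3 CPM and Unc5c at 26.7 against 44.6 CPM. Unc5b was at 17.1 against 28.8 CPM. Slit2, at 13.9 against 16.7 CPM (-0.27, -0.90 to 0.30), and Neo1, at 55.5 against 46.5 CPM (0.25, -0.049 to 0.54), had intervals that included 0.

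Foxa2, an endoderm gene, marked 54 epithelial cells. Of the 9 genes, 3 were higher there, against 14.6% of all genes, and 2 were lower, against 11.5%. The higher genes were Slit3, at 28.8 against 16.8 CPM (log2 fold 0.78, 0.11 to 1.39), Unc5b, at 40.1 against 26.6 CPM (0.59, 0.034 to 1.10), and Unc5c, at 67.6 against 39.8 CPM (0.77, 0.34 to 1.16). The lower genes were Robo1 (-0.55, -1.43 to 0.21) and Robo2 (-0.73, -1.57 to 0.0021), whose intervals included 0.

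Vgll2, at 2 or more UMIs in 970 epithelial cells, went with lower receptors. Robo2 was at 16.9 against 49.0 CPM in the 1236 cells without it (log2 fold -1.54, -1.75 to -1.32), Unc5c at 25.9 against 62.3 CPM, Unc5b at 16.3 against 38.6 CPM and Slit3 at 10.3 against 24.7 CPM. Slit2 and Neo1 differed less, at 16.0 against 18.1 CPM and 45.2 against 48.7 CPM. The Vgll2 cells were the deeper ones, with a median of 14434 UMIs against 9966, and the part of depth in these values was not tested. In the 38 epithelial cells with Tfap2b, Unc5c was at 7.81 against 44.9 CPM (log2 fold -2.52, -4.40 to -1.16) on 4 UMIs, and Robo2 at 21.5 against 32.5 CPM (-0.60, -1.61 to 0.25). Unc5b was at 9.76 against 28.9 CPM (-1.57, -3.19 to -0.34). Unc5c was low in the E12.0 zones where Tfap2b was high as well, but Unc5b was not called lower in them, and the interval of the Robo2 difference at E9.5 included 0.

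In mesenchyme the split followed Hand2, a gene of the distal arch, with the same cut of 2 or more UMIs against none. In 541 Hand2 cells Unc5c was at 129 CPM (121 to 136), with a UMI in 79.1% of cells, against 40.2 CPM and 32.1% of the 4970 cells without Hand2 (log2 fold 1.68, 1.58 to 1.78). Slit3 was at 21.1 against 3.39 CPM (2.64, 2.35 to 2.93), Unc5b at 27.4 against 10.5 CPM (1.38, 1.17 to 1.60) and Robo2 at 15.8 against 9.11 CPM, a log2 fold of 0.79. Robo1 was at 14.3 against 15.2 CPM. Hand2 mesenchyme therefore held more Unc5c than any E12.0 zone or E9.5 class, though the stages were separate libraries.

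Between the stages, all kept E12.0 epithelium was set beside E9.5 epithelium over the 27514 genes listed in both. Stage, library, sort, version of the counting software and gene list differed together and cannot be told apart. Of the 9 genes, 4 were higher at E12.0, against 34.9% of all genes, and 2 were lower, against 25.8%. Robo2 was at 82.7 against 31.8 CPM (log2 fold 1.38, 1.28 to 1.48), Robo1 at 40.7 against 25.3 CPM (0.69, 0.57 to 0.80), Unc5b at 48.4 against 27.8 CPM (log2 fold 0.80) and Neo1 at 75.4 against 47.2 CPM (log2 fold 0.68). Slit3 was at 5.67 against 17.3 CPM (-1.61, -1.80 to -1.43) and Slit2 at 9.33 against 16.8 CPM (-0.85, -1.02 to -0.68). The 4 genes called higher were receptors and the 2 called lower were ligands. With so few genes, and such large shares of all genes called, no pattern of receptors against ligands is read from this. In thinned cells, where fewer cells hold a UMI, Slit2 and Slit3 were not called lower and Robo1 was not called higher. The receptor Unc5c, at 34.6 against 42.8 CPM, and the ligand Ntn1, at 3.68 against 2.55 CPM, ran the other way and were not called.

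Whether ligand and receptor were found in the same cell was asked by dividing the share of cells with both by the product of their shares, in cells thinned to 4100 UMIs. A ratio of 1 is what independent detection gives. At E12.0, over 10331 cells, 0 of the 9 ligand and receptor pairs had an interval wholly above 1. Slit1 was found in 1 of these cells, too few to set a ratio for its pairs with Robo1 and Robo2. Slit2 and Robo2 met in 33 cells, a ratio of 0.431 (0.297 to 0.604), and Ntn1 with Unc5b and with Unc5c gave 0.402 (0.193 to 0.738) and 0.440 (0.177 to 0.907). Slit2 and Robo1 gave 1.15 (0.877 to 1.48), and Ntn1 and Neo1 gave 0.911 (0.635 to 1.27). In these cells Slit2 thus met Robo2, and Ntn1 met Unc5b or Unc5c, more rarely than independent detection gives. These ratios include the zone layout described above. The Ntn1 ratios rested on 10 and 7 cells. With at most 5% mitochondrial UMIs their intervals included 1 (0.223 to 1.60 and 0.0834 to 1.18), while Slit2 and Robo2 stayed below it (0.221 to 0.914). Where each gene had to reach 2 UMIs, the intervals of all 3 pairs included 1.

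In E9.5 epithelium, over 2390 cells, the pairs sat differently. Slit2 and Robo1 gave 1.64 (1.04 to 2.46), Slit3 and Robo2 gave 1.63 (1.10 to 2.31), and Slit2 and Robo2 gave 1.32 (0.838 to 1.98). Ntn1 met Unc5b and Unc5c in 1 cell each, too few to set a ratio. Among receptors, Robo2 and Unc5c met in 67 cells at E12.0, a ratio of 0.290 (0.225 to 0.368), and in 74 cells at E9.5, a ratio of 1.72 (1.36 to 2.15). Robo1 and Unc5c gave 1.71 (1.51 to 1.92) at E12.0 and 0.927 (0.635 to 1.31) at E9.5. Unc5b and Unc5c were above 1 at both stages, at 1.41 (1.26 to 1.59) and 1.56 (1.22 to 1.97). The Robo receptor found with Unc5c above the product of the shares was thus Robo1 at E12.0 and Robo2 at E9.5. The E9.5 ratios also include regional differences, since Robo2 and Unc5c were both lower in cells with Vgll2. They were not repeated under the other settings, and the stages were separate libraries.

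**Figure D5:**
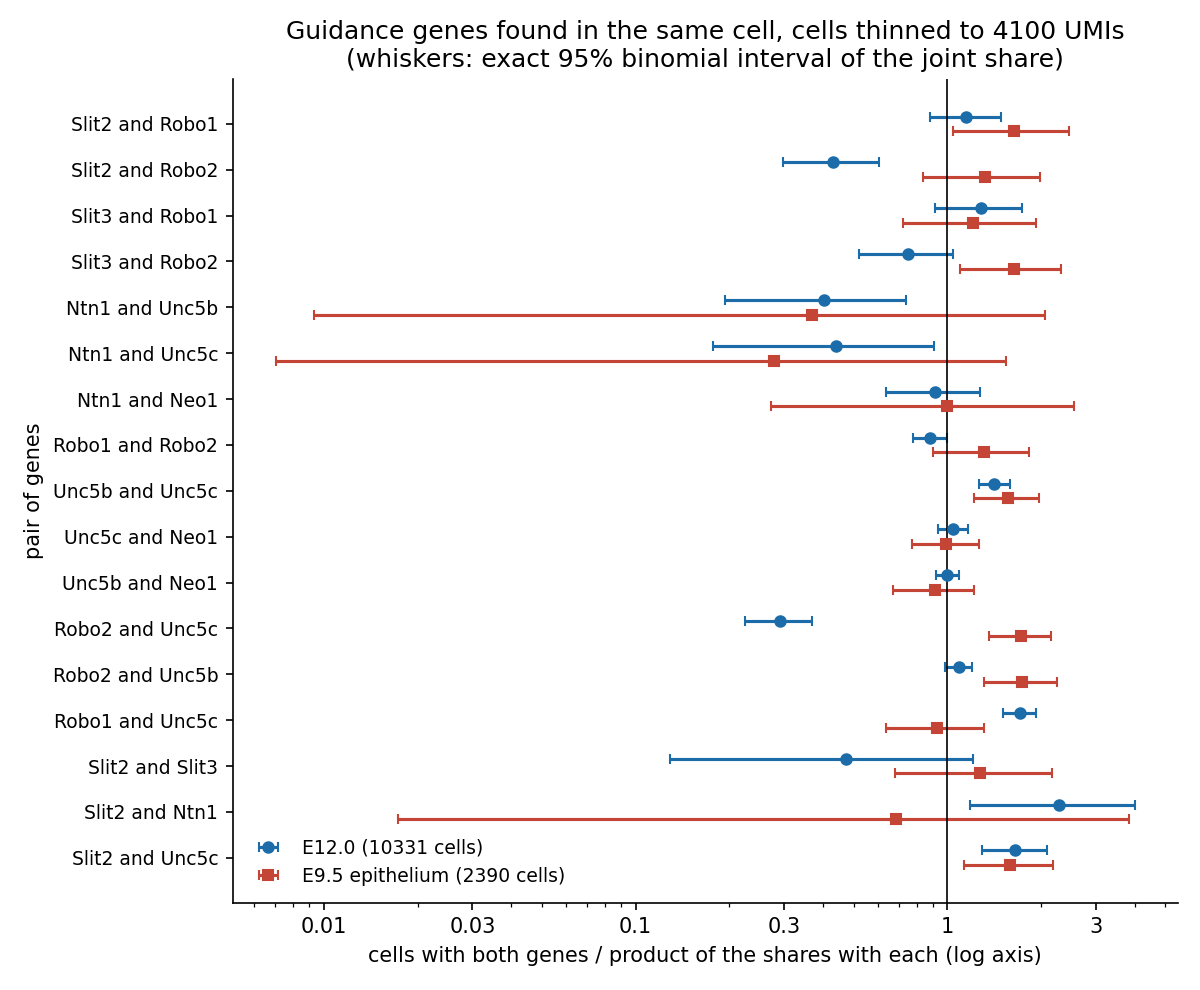
Ratio of the share of cells with both genes of a pair to the product of the 2 shares, on a log axis, for E12.0 cells and E9.5 epithelium thinned to 4100 UMIs, with whiskers for exact 95% binomial intervals of the joint share. Robo2 and Unc5c lie at 0.290 at E12.0 and at 1.72 at E9.5, on either side of 1.

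The other genes of these pathways were taken from a list of 35 ligands, receptors, Slit-binding proteins and effectors, 34 of them in both matrices. In the zones 0 to 3 of them were higher and 2 to 4 lower, with 18 to 21 past the detection criterion, while 2.36% to 11.6% of all genes were called in a direction per zone. Dag1, the dystroglycan that anchors Slit in the matrix, was at 170 against 126 CPM in the Gjb2/Gjb6 zone. Flrt3, a membrane protein that binds Robo1 and Unc5 receptors, was lower there, at 27.8 against 57.1 CPM, and higher in the Irx1 zone, at 140 against 45.0 CPM (log2 fold 1.64). Flrt3 was also lower in the Wnt9b, Pax9 and Dmrt2 zones, at 27.3, 33.2 and 30.1 CPM, and was called higher in the Pthlh zone. Gpc1, a heparan sulphate carrier that binds Slit, was at 76.5 against 48.6 CPM in the Irx1 zone. It was also called higher in the Pthlh zone and lower in the Pax9 zone. The Robo effector Srgap3 was at 51.9 against 28.4 CPM in the Dmrt2 zone, and the neogenin ligand Rgma at 29.7 against 13.2 CPM in the Pax9 zone. Dcc, the classical netrin receptor, was at 0.116 CPM at E12.0 and 0.0331 CPM in E9.5 epithelium. Unc5a, Unc5d and Dscam, which also bind netrin, were at 1.41, 1.07 and 0.90 CPM at E12.0 and at 0.496, 0.0661 and 0.661 CPM in E9.5 epithelium.

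At E9.5, 5 of these 34 genes were higher in epithelium than in mesenchyme, against 26.1% of all genes, and 2 were lower, Gpc1 and Flrt3, against 12.7%, with 18 past the detection criterion. Dag1 was at 132 against 46.4 CPM and the kinase Pak1 at 57.4 against 17.1 CPM. In the muscle core 3 were higher, against 20.5%, and 5 lower, against 13.6%, with 19 past the criterion and Ntng1, a membrane-bound netrin relative, at 23.3 against 2.29 CPM. Between the stages 12 were higher at E12.0, against 34.9% of all genes, and 0 lower, against 25.8%. They included Trio at 134 against 40.5 CPM and Srgap3 at 29.0 against 4.30 CPM.

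Likeness of pattern was measured as Pearson's r of log2 levels over 8 combinations of the gates at E12.0, among 4594 genes. The combinations come from 1 library and are few, so the values describe the pattern only. The genes named are the highest of 4594 over 8 points, a choice that by itself favours high r. Neo1 was even across the zones, so its values rest on differences within counting error. Nearest to Robo2 were Dock8 (0.996), Csad (0.991) and the AP-2 gene Tfap2a (0.989). Nearest to Unc5c were Ptpru (0.981), Nufip1 (0.971) and Mtss1 (0.961), and to Unc5b were Edaradd (0.973), Mxi1 (0.969) and Crabp1 (0.969). Nearest to Slit2 were Dapl1 (0.989), Tshz2 (0.983) and Sult5a1 (0.981), to Robo1 Smarcc2 (0.980), Nin (0.975) and Serbp1 (0.973), and to Neo1 Dnmt3a (0.985), Nsf (0.966) and Ndrg2 (0.963).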

How the data were processed

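Single-cell libraries were made by the authors on the 10x Genomics platform from E12.0 mandibular epithelium and from whole E9.5 mandibular arch, each from pooled K14Cre;R26mT/mG embryos. The authors deposited UMI counts per gene and cell, not normalised. The submitters' processing notes name Cell Ranger 2.0.0 with GRCm38 and mm10, whereas the file headers name 3.1.0 at E12.0 and 6.1.2 at E9.5. No per-sample column was left unused (0).

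Cells with 200 to 5500 genes and at most 10% mitochondrial UMIs were kept. Doublets were not called, and cells that passed gates of several E9.5 classes were left out of the classes. UMIs were summed over the cells of a group and divided by the group total (CPM, per 1000000). Poisson intervals, ratios of sums and Clopper-Pearson intervals were exact at 95%, and a side with 0 UMIs was given a floor of 3 counts. No test was made, since each stage is 1 library and the cells of a library do not replicate it. Higher and lower were set by size, after the cut-offs of the study, as a fold of 1.3 or more with 15% or more of the cells on the higher side holding a UMI. For shares of cells with 2 genes, and for levels by gate UMIs, every cell was thinned to 4100 UMIs (seed 1), leaving out shallower cells.

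All 9 genes, the gate genes, marker genes (1 is not reported here), the pathway genes past the size criteria, and the 3 genes most like each member detected in 15% of the cells of some zone were named. Likeness used log2(CPM + 5). Dcc, Unc5a, Unc5d and Dscam were named after their values were seen. Members, lists and gates were chosen with earlier results of these data known. Positions are from GENCODE M21 and promoters from RefSeq. Python 3.11.15, numpy 2.4.6, scipy 1.17.1, pandas 2.3.3 and matplotlib 3.10.9 were used, and the scripts were tested on simulated data. Alternatives were the gate threshold, zones without shared cells, cell filters, equal weight per cell, thinning and other size criteria.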

Additional observations from a re-analysis of the deposited data

How the results depend on the processing

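Over 11 settings the zone calls numbered 6 to 12 higher and 7 to 14 lower, and of 570 single folds 475 stayed within their interval, 95 moved and 0 reversed. Of 31 calls, 10 stood in every setting: Robo2 in all 6 zones and between the stages, Unc5b and Unc5c in the Pthlh zone and Unc5b in the Dmrt2 zone. Genes higher in E9.5 epithelium numbered 6, but 1 in thinned cells, 3 with a fold of at least 2 and 3 with a UMI in at least 25% of cells. Genes lower at E12.0 than at E9.5 numbered 2, but 1 with at most 5% mitochondrial UMIs, 1 with a fold of at least 2 and 0 with at least 25% of cells. In thinned cells 1 gene was lower, but it was neither Slit2 nor Slit3, which both lost their calls there. Genes higher at E12.0 numbered 4, but 1 with a fold of at least 2. Robo1 also lost its call in thinned cells and with at least 25% of cells. Thinning lowers the share of cells with a UMI by construction. Of the 9 ligand and receptor pairs 0 were above 1, but Slit2 and Robo1 without thinning (1.21, 1.03 to 1.41) and where each gene had to reach 2 UMIs (2.54, 1.10 to 5.00, 8 cells), 1 pair each. At most 5% mitochondrial UMIs left 201 cells in the Gjb2/Gjb6 zone and 120 in the Dmrt2 zone, which differ in mitochondrial share (medians 5.97% and 4.82%). Depth limits Slit1, Slit3 and Ntn1 at E12.0. No paired analysis was possible because each stage is 1 library without replicate numbers.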
